A study of Zea mays with 18 samples.

Results

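Roots of maize seedlings after 4 d of growth without nitrogen (N) were compared here with roots sampled at 0 d, the start of the deprivation, over the inbred lines Lo5 and T250 together. All 6 arrays labelled 4 d and all 6 labelled 0 d were taken, 12 of the 18 arrays of the series, and the remaining 6 are of 1 d. The groups were Lo5 at 4 d, T250 at 4 d, Lo5 at 0 d and T250 at 0 d, with 3 arrays in each. Lo5 and T250 are inbred lines of high and low N use efficiency in the field. Seeds germinated in the dark, the seedlings stood on an aerated CaSO4 solution, and from 0 d on they received a nutrient solution holding P, S, K, Ca, Mg and micronutrients but no N. No N source is named for the CaSO4 stage either, so the 0 d roots are not described as those of plants fed with N. Each array holds the root RNA of 3 pooled seedlings from 1 of 3 growth experiments. There is no array of plants given N for 4 d among those analysed, so the change over time includes 4 d of growth and cannot be told apart from it. In whole roots, fewer cells of a type and less RNA per cell cannot be told apart either.

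Roots take up nitrate through transporters of high affinity (NRT2) and of low affinity (NRT1), and reduce and assimilate it through glutamine and asparagine. When N is short, plants are known to draw on stored N, to change root growth and to shift the uptake of other nutrients, under the control of hormones such as cytokinin, jasmonate, ethylene and auxin. The comparison over both lines asks which transcripts followed the same course in both genotypes, and the line entered the fit as a covariate.

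Of the 39372 probes on the array besides controls, each for 1 transcript of the B73 annotation, 31231 stood well above background throughout 1 group or more (3 arrays), and 29408 of these had an unmarked spot in every group and were tested. Levels are log2 of the processed intensity over the array's 75th percentile, so that a level of 0 is that percentile. Each array had 28868 to 31634 probes well above background and no saturated spot. The first principal component (60.4% of the variance over 22126 probes) separated the lines. The second (14%) split the T250 arrays, with 0 d replicate 1, 4 d replicate 1 and 4 d replicate 2 at 61.6 to 95.7 and 0 d replicates 2 and 3 and 4 d replicate 3 at −96.1 to −80.3, so that a set of arrays within T250 is uneven between the days. The third (8.04%) placed all 6 arrays of 4 d at 29.8 to 72.5 and the 6 arrays of 0 d at −78.7 to 1.8. The array also holds marker genes of other tissues. Of 10 named genes of photosynthesis, 2 stood above background throughout the 12 arrays, and rbcS1, the small subunit of Rubisco, was so on 1. The summed level of the 10 was 0.205 to 0.302 in Lo5 and 0.712 to 0.963 in T250 at 4 d, against 0.529 to 0.741 in Lo5 and 0.777 to 1.76 in T250 at 0 d (linear, in units of the 75th percentile). The 26 zeins, storage proteins of the kernel, had a summed level of 0.392 to 1.11 in Lo5 and 1.12 to 1.53 in T250 at 4 d, against 0.639 to 1.14 in Lo5 and 0.916 to 2.13 in T250 at 0 d. Of these, 5 stood above background throughout the 12 arrays and 13 on none. For 5 seed storage markers, with the globulins among them, the sum was 0.0936 to 0.15 in Lo5 and 0.314 to 0.56 in T250 at 4 d, against 0.154 to 0.326 in Lo5 and 0.426 to 1.12 in T250 at 0 d, so that the days overlapped in T250 only. None of the 4 genes of photosynthesis, 7 zeins and 3 seed storage markers tested was called by limma, 1 of each was lower at the threshold of the methods defined below, and their part in the results was not tested. Of 6 named root genes, 3 stood above background on each of the 12 arrays, the root hair gene rth3 among them. The others, rtcs, nas1 and nas2, were so on 9, 11 and 2 arrays. The summed level of the 6 was 30.3 to 39.5 in Lo5 and 11 to 18.3 in T250 at 4 d. At 0 d it was 24.5 to 27 in Lo5 and 8.93 to 18.3 in T250. Of the 4 tested, 0 were called by limma and 1 was lower at the threshold of the methods.

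After 4 d, 453 transcripts differed from 0 d over both lines (limma with the line as covariate, Benjamini-Hochberg adjusted p up to 0.05 with a change of 1 or more on the log2 scale), 1.54% of those tested. Of these, 223 were higher at 4 d (0.758%) and 230 lower (0.782%). The balance follows the scaling: with the median of each array in place of the 75th percentile 387 were higher and 153 lower, and with quantile normalization 332 were higher and 143 lower. These scalings moved the median log2 ratio of all tested transcripts to 0.048 and 0.003, against −0.08 in the comparison used here. At the threshold of the methods, an unadjusted p up to 0.01 with the same size, 1117 transcripts passed (489 higher, 1.66% of those tested, and 628 lower, 2.14%, together 3.8%). The higher transcripts had a median log2 ratio of 1.49, with 63 at 2 or more, and the lower ones −1.43, with 58 at −2 or less. The count rests on single arrays. Leaving out 1 array at a time gave between 92 calls (without Lo5 4 d replicate 2) and 618 (without T250 0 d replicate 3), and 73 of the 453 (51 higher, 22 lower) were called without each of the 12 arrays in turn. These 73 are called steady below, and a transcript not so described lost its call in at least 1 of the 12. One slide was scanned apart from the others and holds replicate 1 of both lines at 0 d. Without it 136 were called, and 104 of the 445 calls still tested remained called in the same direction. With the set of T250 arrays as a further term 756 were called, 434 of the 453 among them. With the replicate number as a block 217 were called, 192 of the 453 among them.

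With the lines pooled, 6 arrays stood on each side of a ratio, and the median standard error was 0.266 over both lines, against 0.374 in Lo5 alone and 0.376 in T250 alone. Within 1 line the same arrays gave 22 calls in Lo5 (0.0748%) and 181 in T250 (0.615%). Of the 453, 8 were called in each of the lines, 84 in T250 only, 7 in Lo5 only and 354 in neither, and 96 transcripts called in a line were not called over both. All 453 had the same sign in the lines, which the call over both lines favours by its construction. Their 4 d and 0 d arrays did not overlap within either line for 407 (202 higher, 205 lower), against 2347 (7.98%) of all tested, 3.9% higher and 4.08% lower. The calls used the same arrays, so nothing is read from this. The higher transcripts had a median log2 ratio of 1.47 in Lo5 and 1.62 in T250, and the lower ones −1.36 in Lo5 and −1.55 in T250. No transcript passed an adjusted p of 0.05 for the difference of the response between the lines (limma, lowest adjusted p = 0.105), while 1756 had an unadjusted p up to 0.05, 57 of them among the 453. That count of 0 rests on single arrays too, as 182 differences passed without T250 0 d replicate 1, 94 without T250 4 d replicate 3 and 8 without T250 0 d replicate 3. Measured levels differed between the lines more often. The probes follow the B73 annotation, and how far each matches the transcripts of Lo5 and T250 was not tested. Lo5 and T250 differed over both days for 146 of the 453 (32.2%), 74 higher in Lo5 and 72 higher in T250, beside 7510 (25.5%) of all tested.

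**Figure D1:**
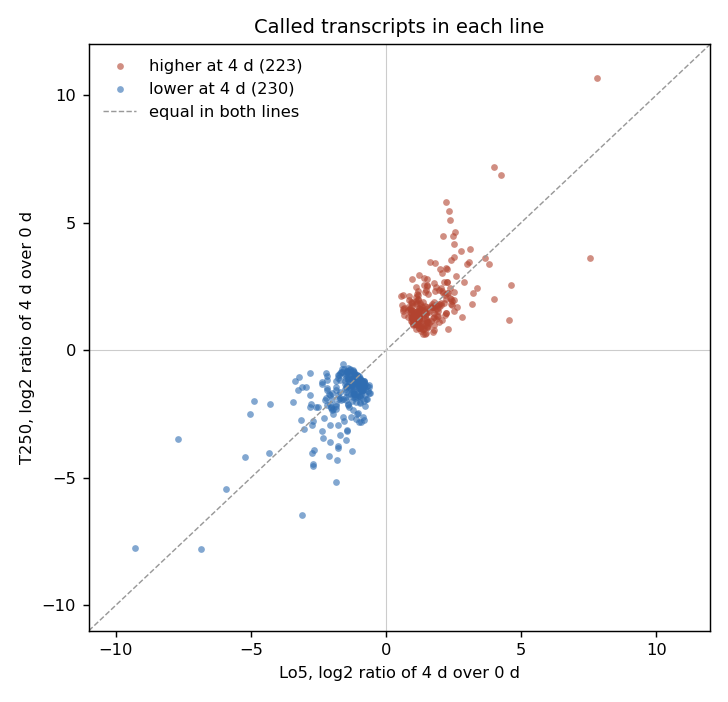
Log2 ratio of 4 d over 0 d in Lo5 (x axis) and T250 (y axis) of the 453 called transcripts, 1 point each, with 223 higher and 230 lower at 4 d. Points lie on both sides of the dashed line of equal ratios and all have the same sign in the lines.

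Several of the widest changes were in transcripts that were near background on one of the days. A transcript of no description, GRMZM2G024996_T01, stood well above background on every array of 4 d and on 1 of 0 d. Its 4 d level was −0.58, 3.91 and 4.77 on the 3 arrays with an unmarked spot, against a median of −7.72 at 0 d (−8.65 to −4.15). It was higher at 4 d with no overlap of the days (limma, adjusted p = 0.0049). Its fold of 314.7 is not a strict bound, since 1 line entered with its measured 0 d mean. A peroxidase, GRMZM2G138450_T01, showed the reverse. It stood well above background on every array of 0 d, with a median of −0.49 (−2.69 to 1.19 on 5 arrays), and on none of 4 d, where the median was −8.94 (−9.24 to −8.38), which makes it at least 82.4-fold lower at 4 d (adjusted p = 0.00081). It alone of all probes was detected on every array of 0 d and on none of 4 d. In the other direction 6 probes were detected on every array of 4 d and on none of 0 d. Of these, 5 were called, among them a zinc-binding dehydrogenase (GRMZM2G125196_T01, at least 31.3-fold higher), a WD40 repeat protein (GRMZM2G078806_T01, at least 4.65-fold higher) and the phosphate transporter described below, and the sixth (GRMZM2G020098_T01) had an adjusted p of 0.062. GRMZM2G078806_T01 and the peroxidase were steady. Among the widest changes in transcripts detected on both days, GRMZM2G336694_T01, which has no description, had a median level of −4.98 at 4 d (−8.69 to −2.21) and 2.51 at 0 d (−0.65 to 5.88), with no overlap (−7.31 ± 1.23, adjusted p = 0.022). Likewise with no description, GRMZM2G059465_T01 had a median of −2.65 at 4 d (−7.90 to 1.04) and 2.45 at 0 d (0.14 to 6.20), and its days overlapped over all arrays but in neither line (−5.69 ± 1.01, adjusted p = 0.027). These 2 stood well above background on 5 and 4 arrays of 4 d and on each of 0 d. Bounds (at least N-fold) set the bright day's mean against the dimmest signals that count as well above background. This was done in a line with no array of the dim day well above background, and otherwise the line's measured means were used.

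A gibberellin-regulated protein (GRMZM2G107003_T01) had a median level of −0.39 at 4 d (−1.17 to 0.27) and of −6.25 at 0 d (−8.73 to −3.08), and was at least 26.5-fold higher at 4 d, a steady call. The glucanase gene geb1 (GRMZM2G065585_T01), which encodes an enzyme that cuts the glucan of walls and is known as a pathogenesis-related protein, had levels of 2.56 to 5.46 at 4 d and −3.74 to 0.44 at 0 d on 4 unmarked arrays each (log2 ratio 5.58 ± 0.94 SE, adjusted p = 0.039). Of 3 tested chitinase genes with a name, whose products cut the chitin of fungal walls, 2 were higher, chiI (GRMZM2G145461_T01, 5 arrays of 4 d and 4 of 0 d) by 2.19 ± 0.41 and chiA (GRMZM2G051943_T01) by 2.15 ± 0.48 on the log2 scale. The days did not overlap for geb1 and chiI and did for chiA. With 1 array left out at a time, the calls of geb1, chiI and chiA held in 3, 2 and 1 of 12 fits. The higher transcripts with the lowest adjusted p were smaller changes, both steady: a RING/U-box protein (GRMZM2G044773_T01) had levels of −0.67 to 0.35 at 4 d and −2.91 to −2.04 at 0 d (2.40 ± 0.19, adjusted p = 0.00081), and a nucleotide-diphospho-sugar transferase (GRMZM2G347766_T01) had −1.01 to 0.43 at 4 d and −3.13 to −1.88 at 0 d (2.17 ± 0.18, adjusted p = 0.00081).

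The transcripts of nitrate uptake and N assimilation that limma called were lower at 4 d. NRT2.2 (GRMZM2G010251_T01), a transporter of high affinity, had a median level of −2.87 at 4 d (−8.35 to −1.36) and levels of −0.41, 1.39 and 1.52 on the 3 arrays of 0 d with an unmarked spot, 1 of them of Lo5. It was 36.3-fold lower at 4 d (log2 ratio −5.18 ± 1.05, adjusted p = 0.049), and the days did not overlap. Within the lines the ratio was −3.13 ± 1.53 in Lo5 and −6.46 ± 1.21 in T250, and the call held in 2 of the 12 fits that left out 1 array. The reference lists nrt2.2 also among the names of GRMZM2G010280_T01, the near copy NRT2.1, whose log2 ratio was −2.10 ± 0.98 (adjusted p = 0.25), and how far each probe reads the other copy was not tested. The tested transcript next to NRT2.2 in the order of the reference genes, GRMZM2G010372_T01 with 1 gene between them, was lower too (−3.32 ± 0.71 with 5 arrays of 0 d, adjusted p = 0.046). NRT1.2 (GRMZM5G811593_T01) had levels of −0.67 to 0.23 at 4 d and 0.52 to 1.23 at 0 d, 2.12-fold lower at 4 d (−1.09 ± 0.20, adjusted p = 0.029). The call of NRT1.2 held in 5 of those 12 fits.

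Asparagine synthetase 2 (GRMZM2G078472_T01), which makes the amide that stores and carries N, had levels of −0.27 to 3.99 at 4 d and 3.68 to 5.34 on 4 arrays of 0 d, 1 of them of T250 (−2.23 ± 0.43, adjusted p = 0.04). The days overlapped over all arrays but in neither line, since Lo5 stood above T250 (line difference 2.43, adjusted p = 0.0017). The cytosolic glutamine synthetase gln3 (GRMZM2G046601_T01) was 2.03-fold lower (adjusted p = 0.031) and alanine aminotransferase 2 (GRMZM2G053939_T01), which moves amino groups between alanine and glutamate, 2.06-fold lower (adjusted p = 0.035). With 1 array left out at a time, the call of asparagine synthetase 2 held in 1 of 12 fits. That of gln3 held in 4 and that of alanine aminotransferase 2 in 3. By the names of the reference genome, 1 of 11 tested enzymes of N assimilation was called, gln3, and their median log2 ratio was −0.27, beside −0.08 for all tested. LBD38 (GRMZM2G177110_T01), a LOB domain regulator that in Arabidopsis represses genes of nitrate uptake and assimilation, had levels of 2.63 to 3.65 at 4 d and 3.88 to 4.86 at 0 d (−1.20 ± 0.22, adjusted p = 0.03). Its relative LBD37 (GRMZM2G017319_T01) had a ratio of −2.14 ± 0.67 with an adjusted p of 0.11. Ammonium transporter 2 (GRMZM2G043193_T01) and nitrate transporter 1.5 (GRMZM2G044851_T01) had ratios of 2.36 ± 0.59 (5 arrays of 4 d) and 2.03 ± 0.55 and missed the adjusted threshold by limma (adjusted p = 0.064 and 0.074). At the threshold of the methods both were higher. Amino acid permease 2 (GRMZM2G110195_T01), an importer of amino acids, was 2.41-fold higher (5 arrays of 0 d, adjusted p = 0.031).

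Of 11 tested phosphate transporters and phytases with a name, 1 was higher, 2 were lower and the median ratio was 0.02. The phosphate transporter pht3 (GRMZM2G045473_T01) stood well above background on every array of 4 d, with a median level of −5.78 (−6.77 to −3.55), and on none of 0 d, with −8.63 (−9.07 to −7.70). It was at least 1.94-fold higher at 4 d, and the measured log2 ratio was 2.97 ± 0.42 (adjusted p = 0.012). Another transporter, pht6 (GRMZM5G881088_T01), missed the threshold over both lines (3.40 ± 0.86, adjusted p = 0.064), with ratios of 5.96 in Lo5 and 0.83 in T250. Both phytase genes of that list, whose enzymes release phosphate from phytate, the phosphorus store of the seed, were lower. Phytase2 (GRMZM2G043336_T01) had levels of −0.50 to 1.67 at 4 d and 3.07 to 5.39 at 0 d, 12.3-fold lower at 4 d (adjusted p = 0.0098). Phytase1 (GRMZM2G140101_T01) had levels of 0.15 to 2.02 at 4 d and 3.76 to 5.99 at 0 d, 9.83-fold lower (adjusted p = 0.0073). The days overlapped for neither, and both calls and that of pht3 were steady. With dim signals raised to a floor, however, 0 of the 11 were called higher, so that pht3 lost its call, while 2 stayed lower. The summed seed storage markers given above were also lower at 4 d in Lo5 and overlapped in T250. SPX3 (GRMZM5G828488_T01), of a family tied to phosphate status, had a ratio of −1.84 ± 0.40 (adjusted p = 0.046). Of sulfate assimilation, APS reductase 3 (AC189750.4_FGT004), which reduces activated sulfate, had levels of −3.80 to −1.18 at 4 d and −1.02 to 0.52 at 0 d (−1.76 ± 0.35, adjusted p = 0.036). An APS kinase (GRMZM5G845021_T01), which diverts the same substrate to sulfation, had a ratio in the other direction (1.46 ± 0.28, 5 arrays of 0 d, adjusted p = 0.037).

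Of 5 tested transcripts of metal transport and chelation, 1 was called higher, NRAMP1, and 0 were called lower by limma or at the threshold of the methods, with ratios between −0.26 and 3.93. NRAMP1 (GRMZM2G168747_T01), a manganese and iron importer in Arabidopsis, had levels of 3.37 to 5.45 at 4 d and −1.28 to 2.66 on 4 unmarked arrays of 0 d, 1 of them of Lo5, 15.2-fold higher at 4 d (adjusted p = 0.0049). A zinc induced facilitator-like transporter (GRMZM2G336448_T01), whose Arabidopsis relative loads vacuoles, had levels of 1.17 to 1.75 at 4 d and −2.26 to −0.34 at 0 d on 4 arrays each (2.54 ± 0.32, adjusted p = 0.021). The days did not overlap for either. Oligopeptide transporter 4 (GRMZM2G112456_T01), of a family that moves peptides and chelated metals, was 2.54-fold higher (adjusted p = 0.015), a steady call. Lower transcripts of copper and iron lay outside that list. Copper transporter 1 (GRMZM2G042412_T01), the importer of copper in Arabidopsis roots, was well above background on 4 of 6 arrays of 4 d, with a median of −5.17 (−8.0 to −3.44), against −0.80 (−4.93 to 0.38) on 5 arrays of 0 d (−4.15 ± 0.70, adjusted p = 0.026). The days overlapped over all arrays and in neither line. A copper chaperone (GRMZM2G113332_T01) was 4.88-fold lower (adjusted p = 0.033), a copper amine oxidase (GRMZM2G009114_T01) at least 2.77-fold lower (adjusted p = 0.028) and a vacuolar iron transporter (GRMZM2G001035_T01) 4.96-fold lower (adjusted p = 0.039). With 1 array left out at a time, the calls of the chaperone, the oxidase and the iron transporter held in 4, 5 and 1 of 12 fits.

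**Figure D2:**
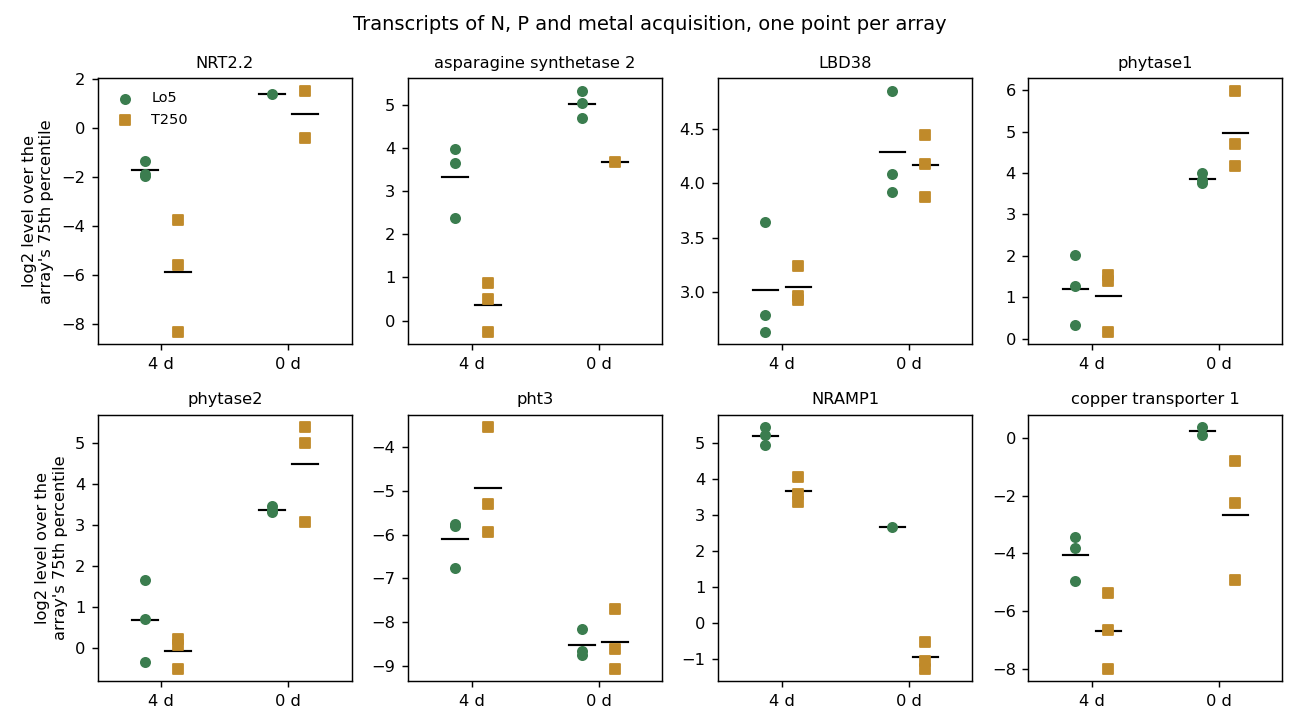
Levels of 8 transcripts on every array (log2 over the array's 75th percentile, y axis) at 4 d and 0 d, with Lo5 as circles, T250 as squares, the group means as bars and marked spots left out. NRT2.2, phytase1, phytase2 and LBD38 lie lower on every array of 4 d than on any of 0 d, and pht3 and NRAMP1 higher, while the ranges of asparagine synthetase 2 and copper transporter 1 overlap across the lines.

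Peroxidases that limma called after adjustment were lower. Besides the peroxidase above, PRX66 (GRMZM2G133475_T01) was 4.46-fold lower (adjusted p = 0.033) and the peroxidase GRMZM2G089982_T01 3.43-fold lower (adjusted p = 0.047). The calls of PRX66 and GRMZM2G089982_T01 held in 4 and 1 of the 12 fits that left out 1 array. Class III peroxidases oxidise wall phenolics and can stiffen or loosen the wall. Another peroxidase, GRMZM2G041308_T01, was called lower too (adjusted p = 0.029), but its probe was well above background on no array of 4 d and only on the 3 of Lo5 at 0 d. It was at least 2.73-fold lower in Lo5, and no fold is given for T250. Of 12 tested transcripts described as peroxidases, 1 of them a glutathione peroxidase, 3 were lower and 0 higher, with a median ratio of −1.07. At the threshold of the methods 6 of the 12 were lower and 1 was higher. These descriptions come from the study's lists of transcripts changed in these same arrays, so their counts are not independent evidence of a direction: 225 of the 777 transcripts with such a description were called (29.0%). An expansin B2 (GRMZM2G100931_T01), of the proteins that loosen walls, had levels of −7.54 to −6.60 at 4 d and −6.03 to −3.64 at 0 d and was lower at 4 d (limma, adjusted p = 0.022). Its fold of 3.18 is not a strict bound, as the probe was well above background on 1 array of 4 d. Another expansin B2 (GRMZM2G094990_T01) was 2.42-fold lower (adjusted p = 0.031). Called lower were also the BURP domain proteins BURP3 (GRMZM2G106980_T01, 4 arrays of 0 d) with a log2 ratio of −2.62 ± 0.19 and BURP2 (GRMZM2G113229_T01) with −2.75 ± 0.53. Their family was not counted as a list, and with 1 array left out the calls held in 11 and 6 of 12 fits.

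In the synthesis of monolignols, the units of lignin, cinnamoyl-CoA reductase 1 (GRMZM2G017285_T01), the first enzyme that commits to them, was 8.30-fold lower (adjusted p = 0.025). Of the hydroxycinnamoyl transferases that passed, one (GRMZM2G178769_T01) was lower (−1.75 ± 0.39) and the other (GRMZM2G089698_T01) higher (1.86 ± 0.39). Their calls held in 1 and 3 of the 12 fits that left out 1 array. Families named by the reference genome, whose members were not picked for their change, had few calls. Which families to count was chosen with earlier results of these data known. Of 11 expansins, 9 laccases, 13 cellulose synthases and 10 cellulases tested, 0 were called by limma after adjustment, with median ratios of −0.45, −0.25, −0.12 and −0.48. At the threshold of the methods 1 expansin was lower and 1 laccase higher. Among 20 aquaporins, the water channels, PIP1-1 (GRMZM2G174807_T01) and TIP2-2 (GRMZM2G056908_T01) were 2.62-fold (5 arrays of 0 d) and 2.22-fold lower, and 0 were higher. TIP2-2 had levels of 6.24 to 7.03 at 4 d and 7.45 to 8.02 at 0 d, a steady call. That of PIP1-1 held in 1 of the 12 fits that left out 1 array.

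Jasmonate transcripts that passed differed in direction. LOX1 (GRMZM2G156861_T01), a lipoxygenase that oxidises fatty acids, had levels of 1.89 to 3.76 at 4 d and 4.32 to 6.25 at 0 d, 5.66-fold lower at 4 d (adjusted p = 0.015), a steady call. An allene oxide synthase (GRMZM2G168404_T01), the next step of jasmonate synthesis, was at least 2.21-fold lower (adjusted p = 0.029). It also differed widely between the lines, by −7.40 on the log2 scale for Lo5 minus T250. Its probe was well above background on 3 arrays of 4 d, and its call held in 6 of the 12 fits that left out 1 array. Of 19 lipoxygenases and jasmonate enzymes with a name, LOX1 was the 1 called, and their median ratio was −0.19. Among these 19, 8 had a positive and 11 a negative ratio, and at the threshold of the methods 1 was higher and 2 lower. The JAZ proteins of the TIFY family, repressors of jasmonate responses, were higher where they passed. JAZ1 (GRMZM5G838098_T01, TIFY2 and TIFY3 in the reference) had levels of −1.68 to 0.10 at 4 d and −3.82 to −1.05 at 0 d (1.77 ± 0.24, adjusted p = 0.01), and TIFY10 (GRMZM2G145458_T01) had 3.98 to 5.03 at 4 d and 2.84 to 3.71 on 4 arrays of 0 d (1.36 ± 0.19, adjusted p = 0.016). TIFY28 (GRMZM2G036351_T01) was 2.54-fold higher (5 arrays of 0 d, adjusted p = 0.035). The calls of JAZ1 and TIFY10 were steady. Of 18 TIFY and ZIM transcripts tested, 3 were higher, 0 lower and 15 had a positive ratio, with a median of 0.36. CYP94C1 (GRMZM2G396248_T01), whose Arabidopsis relative oxidises the active jasmonate, was 2.53-fold higher (adjusted p = 0.042).

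An ACC synthase and 3 transcripts of ethylene response were called, all of them higher. An ACC synthase (GRMZM2G164405_T01), which makes the precursor of ethylene, had levels of −0.84 to 0.45 at 4 d and −2.47 to −0.87 at 0 d, 2.89-fold higher at 4 d (adjusted p = 0.018) with no overlap of the days, a steady call. The 3 called transcripts described as ethylene responsive element binding factor 1 were all higher, GRMZM2G080516_T01 by 1.74 ± 0.22, GRMZM2G055180_T01 by 1.22 ± 0.21 and GRMZM2G466044_T01 by 1.18 ± 0.22. They are the called members of an ethylene list with 5 tested, whose descriptions again come from the study's lists of changed transcripts. The ACC synthase is not of that list and was named after its value was seen. Of 27 factors named EREB in the reference, 0 were called by limma, 0 passed the threshold of the methods, and their median ratio was 0.01. Among 8 cytokinin oxidases, the enzymes that break cytokinin down, CKX4b (GRMZM2G024476_T01) had levels of 1.55 to 2.82 on 5 arrays of 4 d and −0.04 to 1.05 at 0 d (2.17 ± 0.27, adjusted p = 0.0085), cko2 (GRMZM2G050997_T01) had −1.36 to −0.41 at 4 d and −3.74 to −1.81 at 0 d (1.98 ± 0.34, adjusted p = 0.024), and CKX10 (GRMZM2G348452_T01) was lower (−1.45 ± 0.29, adjusted p = 0.035). In the phosphorelay that carries the cytokinin signal, 1 of 18 was higher, the phosphotransfer protein HP3 (GRMZM2G451604_T01), and 1 lower, the response regulator RR7 (GRMZM2G096171_T01, 2.27-fold). The calls of HP3 and RR7 each held in 1 of the 12 fits that left out 1 array. A flavin-binding monooxygenase (GRMZM2G017193_T01), of a family with members that make auxin, had levels of −0.82 to 0.71 at 4 d and −2.85 to −1.22 at 0 d (2.24 ± 0.29, adjusted p = 0.0078), a call as steady as those of CKX4b and GRMZM2G080516_T01. Of 30 auxin response factors and AUX genes with a name, 0 were called by limma and 1 was higher at the threshold of the methods.

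**Figure D3:**
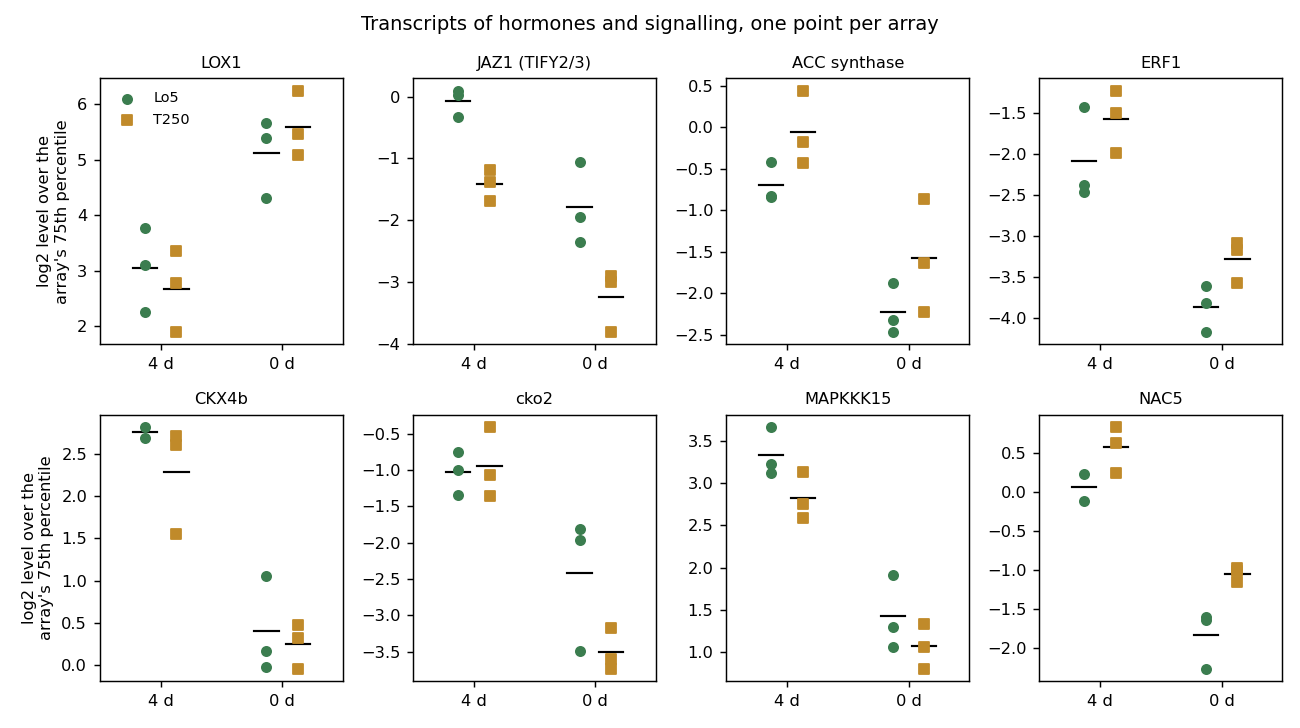
Levels of 8 transcripts of hormones and signalling on every array (log2 over the array's 75th percentile, y axis) at 4 d and 0 d, with Lo5 as circles, T250 as squares, the group means as bars and marked spots left out. LOX1 lies lower at 4 d on every array, the other 7 transcripts have higher means at 4 d in both lines, and for JAZ1 the days overlap across the lines only.

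The MAP kinase cascade passes stress signals by phosphorylation. Of 4 MAP kinases tested by their reference names, 0 were called by limma, 0 passed the threshold of the methods, and 3 had a positive ratio. Single kinases described as parts of the cascade were called higher, and the members of its upper tiers were not counted as a list. MAPKKK15 (GRMZM2G173965_T01) had levels of 2.59 to 3.66 at 4 d and 0.81 to 1.91 at 0 d (1.83 ± 0.19, adjusted p = 0.0029). MKK7 (GRMZM2G344388_T01) was 3.31-fold higher (adjusted p = 0.015), and MPK3 (GRMZM2G017792_T01) had levels of 2.33, 2.44 and 2.86 on 3 unmarked arrays of 4 d and 0.23 to 1.78 on 5 of 0 d (1.64 ± 0.28, adjusted p = 0.039). MAP kinase substrate 1 (GRMZM2G369742_T01) was 2.47-fold higher (adjusted p = 0.011), with no overlap of the days, and its call, MAPKKK15 and MKK7 were steady. PP2C13 (GRMZM2G159811_T01), a phosphatase, was well above background on 5 arrays of 4 d and none of 0 d and was at least 3.22-fold higher, the 1 called of 22 phosphatases named PP2C.

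By description or reference name, NAC and MYB regulators had 6 higher and 0 lower of 68 tested (8.82%), and WRKY and bHLH regulators 6 higher and 1 lower of 64 (10.9%). At the threshold of the methods, NAC and MYB regulators had 12 higher and 5 lower, and WRKY and bHLH regulators 10 higher and 4 lower. Their median ratios were 0.15 and 0.33. The descriptions come from the lists of changed transcripts, as above, of which 29.0% were called. NAC5 (GRMZM2G162739_T01) had levels of −0.11 to 0.82 on 5 arrays of 4 d and −2.27 to −0.98 at 0 d (1.74 ± 0.19, adjusted p = 0.0049). MYB112 (GRMZM2G070849_T01) and MYB79 (GRMZM2G027697_T01) were 3.12-fold (5 arrays of 0 d) and 4.72-fold higher (adjusted p = 0.028 and 0.0085). Another transcript described as MYB112, GRMZM2G134279_T01, was not among the calls here, while the study lists it as higher in both lines at 4 d. The SOC1-like MADS gene GRMZM2G171365_T01, of a family that times flowering in the shoot, was 3.60-fold higher (adjusted p = 0.028), and the SCARECROW-like GRMZM2G028438_T01 3.55-fold higher (adjusted p = 0.0051). The calls of NAC5, MYB79 and the SCARECROW-like gene were steady. By reference names 1 of 25 NAC, 1 of 52 MYB, 2 of 18 WRKY and 2 of 32 bHLH transcripts were higher and 1 bHLH was lower. Among 27 bZIP and 15 TCP and LOB transcripts 0 were called by limma, and 2 bZIP were higher at the threshold of the methods. The median ratio was 0.43 for WRKY, with 15 of 18 above 0, and between −0.13 and 0.35 for the others. Of all 2054 tested transcripts with a reference name, 34 were higher and 22 lower (2.73%).

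**Figure D4:**
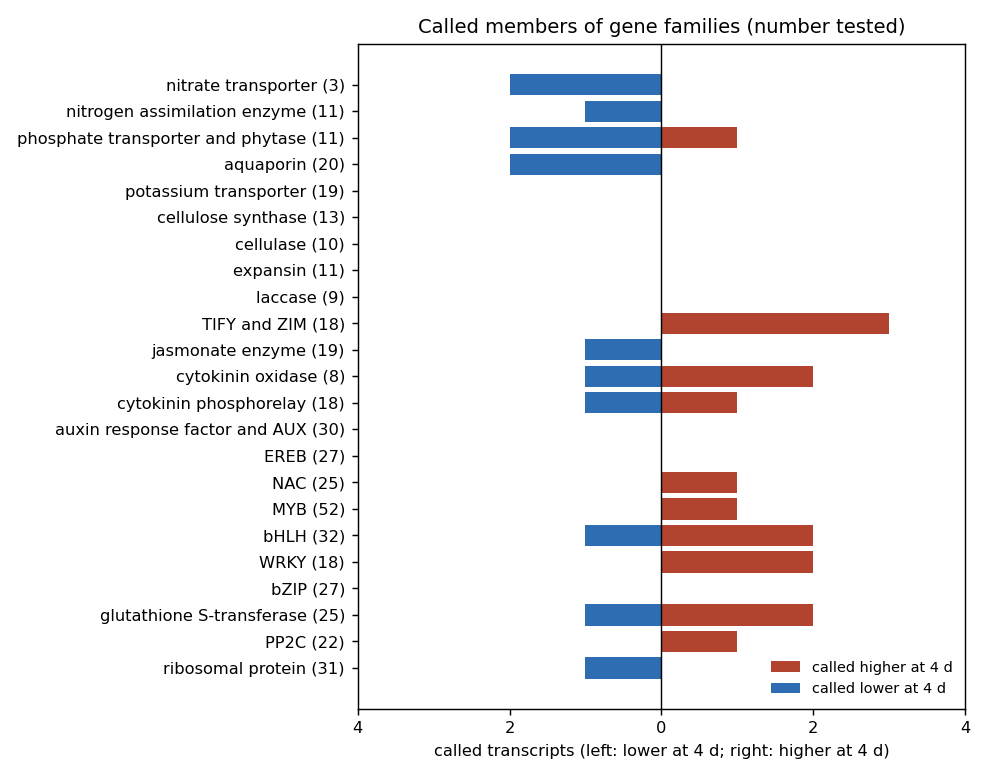
Number of called transcripts (x axis, lower at 4 d to the left, higher to the right) in each family named by the reference genome (y axis, number tested in brackets). No family has more than 3 called members, and of those with 3 the 18 TIFY and ZIM transcripts alone have all 3 on the higher side, while expansin, laccase, cellulose synthase, cellulase, EREB, bZIP, potassium transporter and auxin families have 0.

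Enzymes that attach sugars, glutathione or acyl groups to small molecules changed in both directions. Glycosyltransferases that use UDP-sugars, which cap hormones and phenolics, had 8 higher and 1 lower of 14 tested, with a median ratio of 1.77 (descriptions from the study's lists, as above). The highest was GRMZM2G135722_T01, with levels of −2.15 to −0.20 at 4 d and −6.21 to −3.45 at 0 d (2.73 ± 0.48, adjusted p = 0.025). Its neighbour in the order of tested reference genes, GRMZM2G061289_T01, described alike, was 4.20-fold higher (adjusted p = 0.011), a steady call. Of 25 glutathione S-transferases named in the reference, which add glutathione to toxic compounds, gst7 (GRMZM2G028556_T01) was 9.70-fold and GST25 (GRMZM2G161905_T01) 2.98-fold higher, and gst12 (GRMZM2G096269_T01) 2.06-fold lower. Gst7 had levels of −0.94 to 2.76 at 4 d and −3.13 to −1.57 at 0 d. Of 16 tested P450 enzymes, which hydroxylate small molecules, 2 were higher and 4 lower, with a median ratio of −0.11 (descriptions again from the lists of changed transcripts). CYP709B (GRMZM2G075461_T01) had 0.42 to 1.13 at 4 d and −1.99 to −1.0 at 0 d (2.17 ± 0.20, adjusted p = 0.00099), steady like gst7, and the other higher one was CYP94C1. The lower ones were GRMZM2G167336_T01 (−2.77 ± 0.49, adjusted p = 0.025), GRMZM2G470442_T01 (−2.40 ± 0.42, adjusted p = 0.024), GRMZM2G323830_T01 (−1.93 ± 0.21 with 4 arrays of 4 d and 3 of 0 d, adjusted p = 0.021) and a P450 of family 87 described next.

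Calls at 3 neighbouring places of the reference order were all lower. The acyltransferases GRMZM2G066049_T01 and GRMZM2G066142_T01, of the HXXXD type, lie next to each other in the reference, and the P450 of family 87 GRMZM2G135536_T01 lies beside them with 1 gene between. The first had a log2 ratio of −5.83 ± 0.86 with 5 arrays of 0 d (adjusted p = 0.017, steady), the second −3.93 ± 0.66 with 4 (adjusted p = 0.029) and the P450 −3.62 ± 0.70 with 5 (adjusted p = 0.036). In Lo5 the ratios were −7.72, −4.89 and −5.03, and in T250 −3.48, −2.01 and −2.50. The first acyltransferase was well above background on 3 of 6 arrays of 4 d and was at least 33.6-fold lower, and Lo5 minus T250 was −7.91 on the log2 scale over both days. How far the probes of these 2 acyltransferases read each other's transcript was not tested. Of 14072 tested transcripts placed on 1 reference gene, 239 were called, and 10 pairs of neighbours among the tested were both called, 9 of them in the same direction.

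At 1 d the called transcripts stood, in the median, near their 0 d level. The median of the higher ones was 0.05 above 0 d in Lo5 (replicates 1 and 2) and 0.12 in T250, and that of the lower ones −0.28 in Lo5 and −0.20 in T250. These are levels with no test, and both days are set against the same 0 d arrays. The array labelled Lo5 1 d replicate 3 was left out, since on transcripts that separate the lines it stood at 0.096 on a scale where T250 arrays lie at −0.028 to 0.145 and the other Lo5 arrays lie at 0.933 to 1.03. Of the 223 higher transcripts 4 were already up by 1 or more in each line at 1 d, and of the 230 lower ones 7 were down by as much. Asparagine synthetase 2 (GRMZM2G078472_T01) was one of these 7. Against the 0 d mean of the line it stood at −2.24 at 1 d and −1.70 at 4 d in Lo5, and at −3.43 at 1 d and −3.31 at 4 d in T250, where 1 array of 0 d was unmarked. At 1 d copper transporter 1 stood at −3.71 in Lo5 and −1.99 in T250, and phytase2 at −1.95 in Lo5 and −1.37 in T250. The Nodulin MtN3 family member GRMZM2G179349_T01, of a family of sugar transporters, stood at −1.21 in Lo5 and −1.90 in T250. NRAMP1 stood at 0.89 at 1 d and 2.55 at 4 d in Lo5, with 1 unmarked array each at 0 d and 1 d, and at −0.26 at 1 d and 4.62 at 4 d in T250. MAPKKK15 stood at −0.27 at 1 d and 1.91 at 4 d in Lo5, and at −0.04 at 1 d and 1.75 at 4 d in T250.

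**Figure D5:**
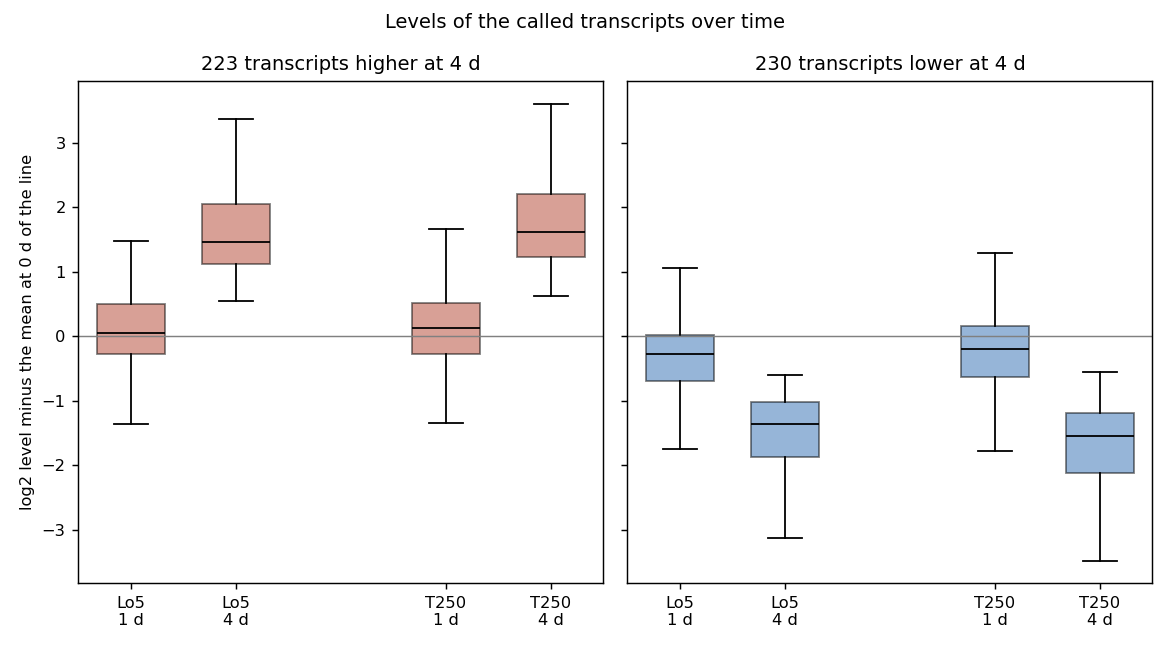
Log2 level minus the 0 d mean of the same line (y axis) for the 223 higher and the 230 lower transcripts at 1 d and 4 d in Lo5 and T250 (boxes show quartiles and median, whiskers reach to 1.5 times the box, farther points not drawn; Lo5 1 d holds 2 arrays). The medians at 1 d lie between −0.28 and 0.12, and those at 4 d between −1.55 and 1.62.

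Ordered by the p of the line difference, 4 of the 453 stood first. CYP94C1 had a ratio of 0.54 in Lo5 and 2.14 in T250 (difference −1.60 ± 0.33, unadjusted p = 0.00066). The gibberellin-regulated GRMZM2G107003_T01 had 7.53 in Lo5 and 3.60 in T250 (3.93 ± 0.87, unadjusted p = 0.001). The MADS gene AGAMOUS-like 66 (GRMZM2G152415_T01) had 4.56 in Lo5 and 1.19 in T250 (3.37 ± 0.81, unadjusted p = 0.0019), and NRAMP1 had 2.55 in Lo5 and 4.62 in T250 (−2.07 ± 0.49, unadjusted p = 0.0027). None of these differences passed after adjustment over all tested transcripts (limma, adjusted p = 0.37, 0.45, 0.54 and 0.57). The 2 transcripts that the study used as references in Real-time RT-PCR did not pass: elongation factor Tu (GRMZM2G153541_T01) had a ratio of −0.76 ± 0.24 with 3 arrays of 0 d (adjusted p = 0.13), and polyubiquitin (GRMZM2G118637_T01) had −0.15 ± 0.31 (adjusted p = 0.81), with Lo5 minus T250 at −4.23 on the log2 scale. Of the 453, 203 carry no description or name in the sources used here.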

How the data were processed

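Root RNA was hybridised to a custom 1-colour Agilent array. The deposited files hold the processed intensity of each spot, which the authors obtained with the scanner's Feature Extraction software. The deposited series table of intensities scaled to the 75th percentile, taken to a log2 scale, was an alternative. Here log2 of the processed intensity was taken minus the array's 75th percentile, the normalization that the methods name. Spots marked non-uniform or population outlier (4.12 to 12.3% per array) were left out, and n is given where a day kept fewer than 6 arrays.

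Ratios came from limma 3.58.1 in R 4.3.3 on 12 arrays with line and day as terms, and line differences from a fit of the 4 groups, with Benjamini-Hochberg adjustment. Scripts were tested on simulated data. The number of arrays limits the precision. Descriptions came from the study's tables, and gene names and gene order from RefSeq (Zm-B73-NAM-5.0). No coordinates were used, since the array follows an earlier annotation of B73.

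Members, lists and tests were chosen with earlier results of these data known. Transcripts were named by size of change among calls whose days did not overlap within a line, as called members of the lists, as those the study names, by the lowest p of the line difference and by detection on 1 day only. Besides these, 13 were named after their values were seen: NRT2.1, the neighbour of NRT2.2, alanine aminotransferase 2, the zinc facilitator-like transporter, oligopeptide transporter 4, copper chaperone, copper amine oxidase, vacuolar iron transporter, ACC synthase, MPK3, MAP kinase substrate 1, the SOC1-like gene and the MtN3 member.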

Additional observations from a re-analysis of the deposited data

How the results depend on the processing

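The 453 calls of 4 d against 0 d came to 123 with an unmoderated t-test of the same fit, which is not the methods' t-test within each line. They came to 47 without the line covariate, 229 with no filter on dim probes, 136 without the slide scanned apart and 756 with the set of T250 arrays as a term. These last 2 fits were added after seeing the data. Leaving out 1 array gave 92 to 618 calls, with 227, 124, 180, 92 and 134 without Lo5 0 d replicates 1 and 3 and Lo5 4 d replicates 1, 2 and 3, and 243, 152, 225 and 125 without T250 0 d replicates 1 and 2 and T250 4 d replicates 1 and 2. Between 309 and 590 were called in the other fits but those with the replicate block and normexp. With normexp on the median signals 55 were called and 490 passed the threshold of the methods, against 1117, 711 passed it without the line covariate, and 635 of the 1117 had an unadjusted p up to 0.05 in each line. The unmoderated t-test gave 387 higher and 466 lower at that threshold. On T250 4 d replicates 1 and 2 the 10th percentile of the normexp signal was 354.4 and 226.5, against 58.3 to 77.4 on the other 10 arrays. The 453 kept their sign wherever they were tested, except with normexp, where 391 did. There the ratio turned to 0.0931 for GRMZM2G009114_T01, 0.25 for GRMZM2G041308_T01, 0.0914 for GRMZM2G046601_T01, 0.0871 for GRMZM2G100931_T01 and 0.17 for GRMZM2G179349_T01, and the median of the N assimilation enzymes to 0.09. Polyubiquitin (GRMZM2G118637_T01), not called, turned to 0.21 without the slide scanned apart and 0.0947 without Lo5 0 d replicate 1. The cause of these changes was not tested.

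Differences between the lines came to 157 without the slide scanned apart, 1 with a floor for dim signals, and 0 to 182 with 1 array left out. No source used here says that a replicate number marks the same growth experiment on both days, so the numbers were not taken to pair the arrays. Deviations of the same number at 4 d and 0 d correlated at −0.04, 0.05 and −0.11 in Lo5 and 0.41, −0.29 and 0.43 in T250. With 3 arrays per group these values cannot show whether the numbers pair the arrays. With the replicate block 217 transcripts were called, 192 of the 453 among them, and no line difference passed (1825 at an unadjusted p up to 0.05). Signals near background limit the ratios of 54 of the 453, whose dim day has only a bound.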
